A study of Macaca mulatta with 8 samples.

Results

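E60 and E50 cultures of rhesus macaque cortex were compared through the accessible regions that each had and the other lacked. An autosomal region was counted as E60-only when the authors' merged table assigned it at least 1 peak of the E60 set and no peak of the E50 set, and as E50-only in the opposite case. Regions with peaks of both sets were the background. Of 69716 autosomal regions with a peak of any stage, 58755 were called at E60 or E50. The E60-only regions numbered 40564, which is 69.0% of the 58755. There were 1026 E50-only regions, or 1.75%, and 17165 regions called at both. The members were thus chosen by the E60 and E50 calls themselves, so their numbers are given as a description and no test was made on them.

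Chromatin accessibility was measured by bulk Omni-ATAC-seq, in which the transposase Tn5 inserts adapters into open DNA. The cells were primary cells of macaque cortex taken at post-conceptional day 60 (E60) and day 50 (E50), and no genetic change or drug separated the groups. Cultures of day 80 (E80) and day 85 (E85) were used only as an outside readout. All cells came from cryopreserved cortical pieces, were dissociated with papain, and were grown on a laminin-coated surface in a progenitor-enriching medium with FGF2, EGF and BDNF, with the CEPT survival cocktail at plating. Each stage had 1 culture and 2 technical libraries, so age cannot be told apart from the animal, the piece of tissue or the culture. The labels do not say how many animals or which cortical area were sampled. Values per library were not used, and each region is known only as called or not called at a stage. The sets differed in size, with 61956 peaks at E60 and 19833 at E50, so an E60-only region may have been open below the calling threshold at E50. Exact Clopper-Pearson 95% intervals are given in brackets. They cover counting error alone, since regions of 1 culture are not replicates, and no difference below has a replicate check.

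In the dorsal wall of the developing cortex, radial glia act as the stem cells. They divide at the ventricle and produce intermediate progenitors, which express EOMES and NEUROG2, and these produce the excitatory neurons of the deep and then the upper layers. Promoters of genes used in every dividing cell are open in all of these types, whereas distal enhancers change with cell type and stage, and carry the short motifs to which transcription factors bind. AP-1 (dimers of FOS and JUN proteins) follows growth-factor, activity and stress signals. STAT dimers act below cytokine receptors such as LIFR in radial glia and astrocytes, and TEAD factors act with YAP in progenitor growth.

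Sequences of 6 regions and 1 promoter show what the classes hold. They are rheMac10, plus strand unless stated, in lower case, with matches to any of the 25 motifs searched in capitals. The GRIN2B, MAML3 and SPRED2 regions were taken by a fixed order, from 203 candidates among E60-only and 2 among E50-only regions. Candidates were distal, at most 300 bp, outside annotated exons and in a listed gene's locus. Those with the most peaks, summed over the stages, came first, and then those with the most motif matches. The DAB1, NRXN3 and TCF7L2 sequences were chosen after their values were seen, to show AP-1 and STAT matches. All 6 lie in introns of the genes that name them.
GRIN2B E60-only, chr11:15127454-15127747, also called at E80 and E85, with E-box CACGTG, TCF/LEF and STAT matches: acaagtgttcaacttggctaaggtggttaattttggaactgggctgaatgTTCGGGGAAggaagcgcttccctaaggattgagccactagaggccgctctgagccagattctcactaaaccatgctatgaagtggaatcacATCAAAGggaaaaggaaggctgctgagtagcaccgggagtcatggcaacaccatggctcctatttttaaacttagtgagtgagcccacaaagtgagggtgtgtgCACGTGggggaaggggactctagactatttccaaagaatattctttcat
MAML3 E60-only, chr5:137936109-137936385, also called at E80 and E85, with E-box CAGCTG, E-box CATCTG and T-box matches: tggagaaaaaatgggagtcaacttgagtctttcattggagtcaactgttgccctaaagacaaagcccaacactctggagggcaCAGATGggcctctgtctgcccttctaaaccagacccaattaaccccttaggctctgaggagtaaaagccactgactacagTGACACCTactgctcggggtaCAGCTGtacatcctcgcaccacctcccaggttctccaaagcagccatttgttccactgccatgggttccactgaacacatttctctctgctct
DAB1 E60-only, chr1:166629900-166630171, also called at E80 and not E85, with 2 AP-1 matches: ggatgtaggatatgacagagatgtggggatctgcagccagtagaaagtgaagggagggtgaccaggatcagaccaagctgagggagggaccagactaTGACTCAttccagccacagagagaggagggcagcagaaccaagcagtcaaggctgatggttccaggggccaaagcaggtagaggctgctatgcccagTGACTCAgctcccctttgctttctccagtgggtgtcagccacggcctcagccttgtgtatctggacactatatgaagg
SPRED2 E50-only, chr13:43427037-43427297, also called at E80 and E85, with an E-box CATCTG match: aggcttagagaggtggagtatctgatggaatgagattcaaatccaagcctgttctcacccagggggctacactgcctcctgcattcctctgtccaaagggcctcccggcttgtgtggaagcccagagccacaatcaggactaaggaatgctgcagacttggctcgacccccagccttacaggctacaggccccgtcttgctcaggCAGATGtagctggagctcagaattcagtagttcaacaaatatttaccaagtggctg
NRXN3 E50-only, the central 300 bp, chr7:141219600-141219899, also called at E80 and E85, with AP-1, SOX, homeobox, and overlapping STAT and TEAD matches: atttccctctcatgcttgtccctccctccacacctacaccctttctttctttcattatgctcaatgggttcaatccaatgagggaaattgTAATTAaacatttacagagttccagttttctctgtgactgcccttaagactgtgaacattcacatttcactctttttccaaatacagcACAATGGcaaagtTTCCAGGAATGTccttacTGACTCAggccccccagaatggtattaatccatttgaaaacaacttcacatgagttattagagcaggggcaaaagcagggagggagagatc
TCF7L2 E50-only, the central 300 bp, chr9:113572374-113572673, also called at E85 and not E80, with a STAT match: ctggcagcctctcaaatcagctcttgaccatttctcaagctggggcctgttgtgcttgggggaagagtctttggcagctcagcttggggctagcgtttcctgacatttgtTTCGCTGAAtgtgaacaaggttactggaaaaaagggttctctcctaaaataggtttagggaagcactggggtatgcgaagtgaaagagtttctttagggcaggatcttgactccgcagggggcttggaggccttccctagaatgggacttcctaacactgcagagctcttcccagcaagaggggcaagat
NEUROG1 promoter, chr6:132997437-132997686, minus strand, the 250 bases before the annotated start, with homeobox and POU matches: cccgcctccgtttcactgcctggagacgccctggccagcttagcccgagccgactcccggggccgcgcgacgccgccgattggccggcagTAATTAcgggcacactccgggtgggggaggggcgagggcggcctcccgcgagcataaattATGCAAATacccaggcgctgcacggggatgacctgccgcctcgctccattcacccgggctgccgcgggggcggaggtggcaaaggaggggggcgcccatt
The NEUROG1 window lies wholly within an E60-only region (chr6:132997132-132997845) that was also called at E80 and not at E85. NEUROG1 encodes a proneural bHLH factor.

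The peak names gave a further handle on the E50-only class. Peaks were numbered in order along each sequence, in 59599 of 59599 neighbouring pairs of regions at E60 and 18669 of 18669 at E50, and some numbers do not appear in the table used here. On the autosomes 5099 E60 numbers (7.87%) and 2585 E50 numbers (11.9%) were missing. A number missing between the 2 peaks that flank a region leaves room for a peak of the other stage there, although its position is not known. Among E50-only regions with E60 peaks on either side, 534 of 1024 had an E60 number missing between them (52.1%, 49.0 to 55.2). This held for 261 of 286 promoters (91.3%, 87.4 to 94.3) and 273 of 738 distal regions (37.0%, 33.5 to 40.6). Among regions called at E80 and at neither E60 nor E50, an E60 number was missing for 26.7% of promoters (22.9 to 30.7) and 14.8% of distal regions (14.1 to 15.5). Among E60-only regions an E50 number was missing for 14.5% (14.1 to 14.8). Thus for most E50-only promoters the absence of an E60 call rests on a place where an E60 number was missing. The main results for E50-only regions are therefore also given for the 490 with no E60 number missing, of which 25 were promoters and 465 distal, and for the matching 34613 E60-only regions. This subset was chosen after the data were seen.

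E60-only and E50-only regions were called differently at the 2 later stages, which the choice of members did not use. Of the E60-only regions, 71.2% (70.7 to 71.6) were called at E80 and 21.7% (21.3 to 22.1) at E85. Of the E50-only regions, 39.8% (36.8 to 42.8) were called at E80 and 75.5% (72.8 to 78.1) at E85. Regions called at both were called at E80 in 98.1% and at E85 in 97.6% of cases. Over all autosomal regions with a peak of any stage, 80.6% were called at E80 and 40.1% at E85. E60-only regions thus had the order of all regions, E80 above E85, and E50-only regions the opposite one. A call at E85 without E80 was found in 0.993% of E60-only but 40.1% of E50-only regions, and in 1.47% of regions called at both. With no number missing, 35.5% (31.3 to 39.9) of E50-only regions were still called at E85 and not E80, and their shares were 51.0% (46.5 to 55.5) at E80 and 82.0% (78.3 to 85.3) at E85. For the E60-only regions of that kind the shares were 70.9% at E80 and 21.4% at E85. Set size moves with this pattern: E60 and E80 were the large sets, with 57729 and 56172 autosomal regions, and E50 and E85 the small ones, with 18191 and 27957. Its part in the pattern was not tested. Called at neither later stage were 27.8% of E60-only and 20.2% of E50-only regions, and 0.390% of regions called at both E60 and E50. The share was 13.5% (10.6 to 16.8) for E50-only regions with no number missing.

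**Figure D1:**
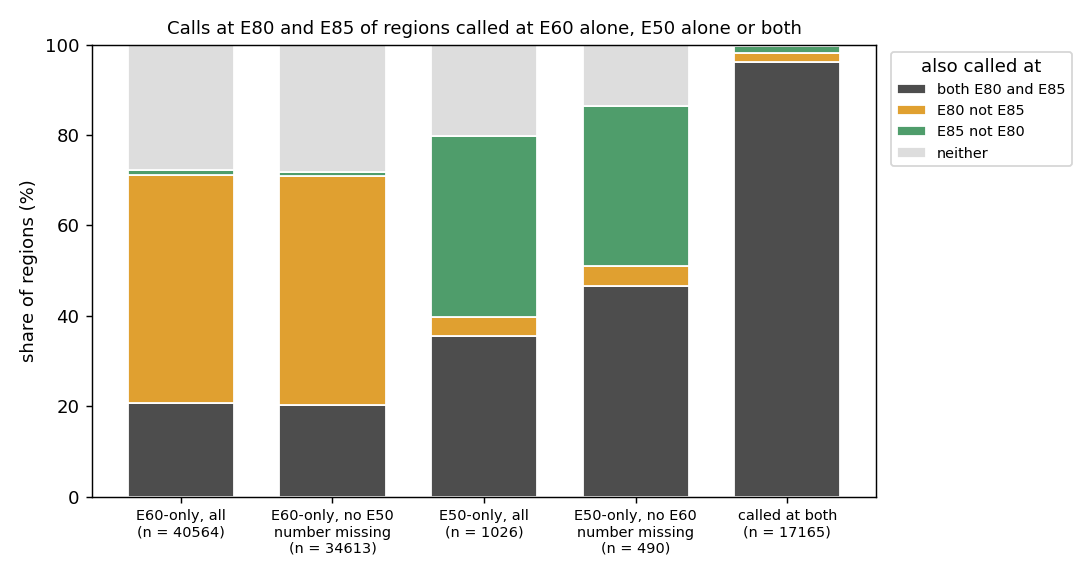
Share of regions (%, y axis) called at both E80 and E85, at 1 of them or at neither, for E60-only regions, E50-only regions (each in all and with no number of the other stage missing) and regions called at both. E80 without E85 fills 50.5% of the first bar, and E85 without E80 fills 40.1% of the bar of all E50-only regions.

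E60-only regions were mostly narrow and distal. Their median width was 423 bp, against 549.5 bp for E50-only regions and 991 bp for regions called at both. Promoters, here regions within 1000 bp of an annotated transcription start, made up 16.4% of E60-only regions (16.1 to 16.8), 28.0% of E50-only regions (25.2 to 30.8) and 49.2% of regions called at both. Introns held 40.5% and intergenic sequence 35.7% of E60-only regions. The promoter share of E50-only regions was 5.10% (3.33 to 7.44) where no E60 number was missing, and the median width was then 431.5 bp. Median GC content was 51.5% in E60-only regions, 53.0% in E50-only regions (48.5% with no number missing) and 58.0% in regions called at both. The CpG observed to expected ratio, low where DNA has lost CpG through methylation over evolution, had medians of 0.272 in E60-only regions, 0.258 in E50-only regions (0.151 with no number missing) and 0.520 in regions called at both. Repeated sequence, here any 31-mer that occurs more than once in the genome, was found in 16.6% of E60-only, 37.0% of E50-only and 28.6% of regions called at both, and in 21.4% (17.9 to 25.3) of E50-only regions with no number missing. Peaks lifted from another set were merged into 62.0% of E60-only regions, 62.4% of E50-only regions and 90.2% of regions called at both, so widths and centres may rest on them in part.

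**Figure D2:**
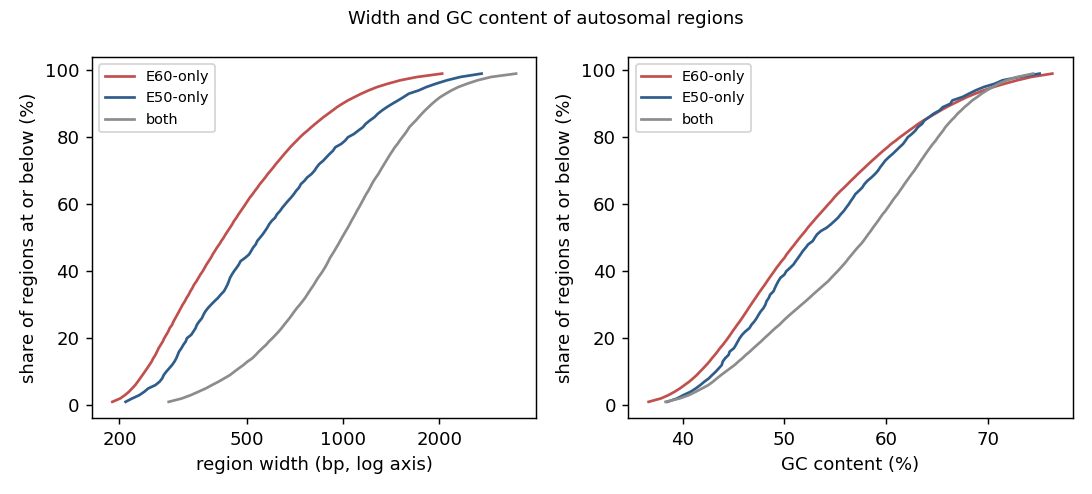
Percentile curves of region width (bp, log axis, left) and GC content (%, right) for E60-only, E50-only and both. The y axis is the share of regions at or below each value; the E60-only curve crosses its median at 423 bp and the curve of regions called at both at 991 bp.

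At the edge of the definition, 701 of 40564 E60-only regions held 2 or more E60 peaks (1.73%), and 10 of 1026 E50-only regions held 2 or more E50 peaks. A region of the other stage lay within 1000 bp of 2002 E60-only regions (4.94%) and 120 E50-only regions (11.7%). The median distance to the nearest such region was 34535 bp from E60-only and 8620 bp from E50-only regions. Across chromosomes the E60-only share ran from 57.1% on chromosome 19, where 44.1% of regions were promoters, to 76.6% on chromosome 18, where 19.8% were. By kind, 6657 of 15396 promoters were E60-only (43.2%) and 287 were E50-only (1.86%). Of 43359 distal regions, 33907 were E60-only (78.2%) and 739 were E50-only (1.70%).

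Of the 3 classes, distal E60-only regions held AP-1 motifs most often, and distal E50-only regions STAT and TEAD motifs. Motifs were sought on both strands within 150 bp of the region's centre, and a match is a description of the letters, not a binding site. The AP-1 motif (TGANTCA) was found in 30.1% of distal E60-only regions (29.6 to 30.6), 15.2% of distal E50-only regions (12.6 to 17.9) and 23.9% of distal regions called at both (23.0 to 24.9). With no number missing the E50-only share was 13.1% (10.2 to 16.5). Among distal regions called at both, reweighted to the GC content of E60-only and E50-only regions, the shares were 25.4% and 25.6%. Over distal regions of any stage the share was 32.5%. Read backwards, the AP-1 letters were found in 8.13% of E60-only, 6.77% of E50-only and 7.32% of regions called at both. Within the distal E60-only regions, AP-1 was found in 40.1% (39.4 to 40.8) of those called at E80 and not E85, 25.3% (24.2 to 26.4) of those called at both later stages, 16.9% (16.2 to 17.7) of those called at neither and 7.80% (5.28 to 11.0) of the 372 called at E85 and not E80. The DAB1 sequence above, with 2 matches, belongs to the first of these groups.

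The STAT motif (TTCNNNGAA) was found in 9.05% of distal E60-only regions (8.74 to 9.36), 15.2% of distal E50-only regions (12.6 to 17.9) and 10.7% of those called at both (10.0 to 11.3). Its share was 18.9% (15.5 to 22.8) in the 465 distal E50-only regions with no E60 number missing, against 12.3% in regions called at both of the same GC content. In the 166 of these called at E85 and not E80 it was 25.9% (19.4 to 33.3). It was 14.5% (10.1 to 19.9) in the 214 called at both later stages and 18.8% (10.1 to 30.5) in the 64 called at neither. In the 21 called at E80 and not E85 it was 9.52% (1.17 to 30.4), and the intervals of these groups overlap. The letters read backwards were found in 9.83% of E60-only, 9.61% of E50-only and 9.57% of regions called at both, with overlapping intervals. Over distal regions of any stage 9.92% held the motif. TEAD (ACATTCC) was found in 5.12% of distal E60-only regions (4.89 to 5.36), 8.93% of distal E50-only regions (6.97 to 11.2) and 6.51% of those called at both, and its share over distal regions of any stage was 6.36%. With no number missing the TEAD share of E50-only regions was 10.5% (7.90 to 13.7). By later calls the TEAD order differed from that of STAT. TEAD was found in 14.5% (10.1 to 19.9) of those called at both later stages and 8.43% (4.69 to 13.7) of those called at E85 and not E80. It was found in 9.52% of those called at E80 and not E85 and 3.13% of those called at neither. STAT or TEAD was found in 28.2% (24.1 to 32.5) of the 465 distal E50-only regions with no number missing. The share was 13.7% (13.3 to 14.1) in the matching E60-only regions, but both motifs together were found in 6 of 465 and 163 of 29215. The NRXN3 sequence is 1 with both, in overlapping letters.

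CTCF, homeobox and E-box CATCTG motifs were also more frequent in distal E60-only than in distal E50-only regions. The motif of CTCF, which anchors chromatin loops, was found in 7.15% of E60-only regions (6.88 to 7.43), 3.25% of E50-only regions (2.09 to 4.79) and 5.84% of those called at both, and in 1.72% (0.746 to 3.36) of E50-only regions with no number missing. The homeobox motif (TAATTA), read by LHX and EMX factors, had shares of 11.5% in E60-only, 8.12% in E50-only and 8.42% in regions called at both, and the interval of the E50-only share (6.25 to 10.3) did not reach that of E60-only regions (11.2 to 11.8). It did with no number missing (9.89%, 7.33 to 13.0). The E-box CATCTG, read by NEUROG and NEUROD factors, was found in 24.2% of E60-only, 18.7% of E50-only (18.9% with no number missing) and 21.0% of regions called at both. SOX (ACAATNG), T-box (AGGTGTNA) and POU (ATGCNAAT) had E50-only intervals that held the E60-only share. With no number missing POU did not, at 9.25% of E50-only (6.77 to 12.3) and 6.63% of E60-only regions. Over distal regions of any stage, the homeobox motif was found in 10.2% and that of CTCF in 6.12%. Distal regions called at both were also reweighted to the GC content of E60-only regions. They then held the homeobox motif in 9.68%, that of CTCF in 5.13% and E-box CATCTG in 21.1%.

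**Figure D3:**
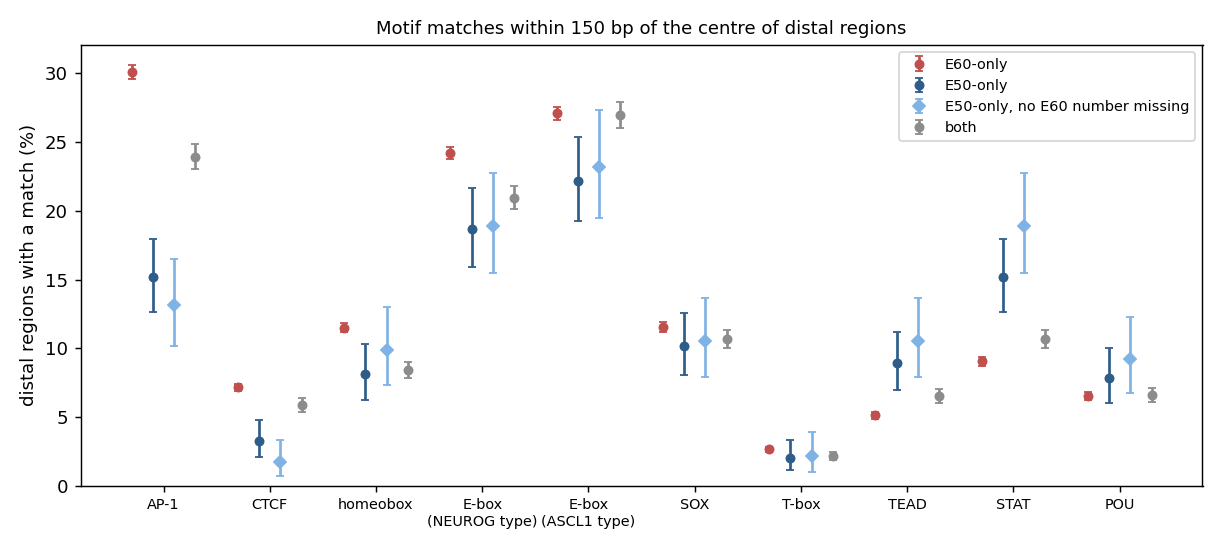
Share of distal regions with a motif match within 150 bp of the centre (%, y axis) for 10 motifs, in E60-only regions, E50-only regions (all, and with no E60 number missing) and regions called at both. Points are shares and bars 95% Clopper-Pearson intervals; AP-1 is highest in E60-only regions at 30.1%, and STAT in E50-only regions with no number missing at 18.9%.

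Promoters differed by class in another set of motifs. ETS (CCGGAAGT), a motif of housekeeping promoters, was found in 1.68% of E60-only promoters (1.39 to 2.02), 7.67% of E50-only promoters (4.87 to 11.4) and 5.90% of promoters called at both. NFY (CCAATCAG) was found in 1.83% of E60-only promoters (1.52 to 2.18), 4.18% of E50-only promoters (2.18 to 7.19) and 3.74% of promoters called at both. AP-1 was found in 9.55% of E60-only promoters (8.86 to 10.3), 3.48% of E50-only promoters (1.68 to 6.31) and 3.67% of promoters called at both. Reweighted to the GC content of E60-only promoters, promoters called at both held AP-1 in 5.05%, ETS in 5.28% and NFY in 3.65%. For each of the 3 motifs the interval of E50-only promoters held the share of promoters called at both, but 91.3% of them stood where an E60 number was missing. In the 25 with no number missing, ETS and NFY were found in 0 (up to 13.7%) and AP-1 in 3 (12%, 2.55 to 31.2). Over promoters of any stage the shares were 3.97% for ETS, 2.89% for NFY and 7.21% for AP-1.

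Loci were ranked by the share of their regions that was E60-only. A locus was the body of a protein-coding gene and the 5000 bp upstream of it, and 995 autosomal loci held at least 8 regions. Their median E60-only share was 76%, and in 79 of them (7.94%) every region was E60-only. The 79 are tied, and the 10 named here are those with the most regions, a choice that favours long genes. They were DAB1 with 25 of 25 (chr1:166174921-167430755), TNS1 with 22, KCNQ3 with 20, BEND5, PTPRD, ROBO1 and RORA with 19 each, CNTNAP2 with 17, and LDLRAD3 and NXN with 16 each. DAB1 relays the reelin signal that positions migrating neurons, and ROBO1 is the axon-guidance receptor for SLIT proteins. KCNQ3 is a subunit of the channel that carries the M-current, and PTPRD and CNTNAP2 are adhesion proteins of neuronal membranes. RORA is a nuclear receptor, and TNS1 links integrins to actin at focal adhesions. No E50 number was missing at any region of these 10 loci. As these loci held no E50 peak, all regions of a locus share 1 gap between flanking E50 peaks. The absence of a missing number is thus 1 observation per locus. At DAB1 16 of the 25 regions were also called at E80 and 6 at E85, at KCNQ3 17 and 1 of 20, at ROBO1 14 and 1 of 19, and at PTPRD 9 and 4 of 19.

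The 10 loci with the lowest E60-only share spanned 39.7 to 459 kb, against 175 to 2345 kb for the 10 named with the highest. The latter were picked from tied loci by their number of regions, so their length partly reflects that choice. ARVCF, a catenin of cell junctions, had 2 E60-only and 7 shared regions (chr10:32618496-32673815), and BCAR1, a focal adhesion scaffold, 2 and 6. CUEDC1 had 5 E60-only, 1 E50-only and 12 shared regions. LMNA, which encodes lamins A and C, had 5, 1 and 8, and the ephrin receptor EPHB1 5, 2 and 7. ACTN4, an actin crosslinker, had 4 E60-only and 7 shared regions, and CAPN2, CSRP1 and FAM102A were also in the group. Over the 995 loci, Spearman's rho of the E60-only share was 0.22 with locus length and -0.13 with the promoter share of the locus, as a description over loci of the same peak sets. The median locus length was 176 kb in the third with the lowest E60-only share and 253 kb in the third with the highest. Loci with exactly 8 regions, just inside the minimum, numbered 180 with a median share of 75%, and the 280 loci with 7 regions, just outside, had 71.4%.

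E50-only regions were spread thinly over genes. Of 3128 loci with at least 4 regions, 325 held 1 or more (10.4%). Counted over regions with no number missing, it was 6.26% of 2762 loci. NEBL, an actin-binding protein gene, and CTSZ, a lysosomal cathepsin gene, were tied for the highest E50-only share at 50%. NEBL had 1 E60-only, 3 E50-only and 2 shared regions, but an E60 number was missing at all 3 E50-only regions. None of the E50-only regions of CEP250, ZNF596 and ACOX3 was free of a missing number either. CTSZ had 2 E60-only and 2 E50-only regions, HK1 (hexokinase) and NACC1 (a BTB-domain repressor) had 2 and 2 with 1 shared, and CEMIP (hyaluronan degradation) had 6 and 3 with 1 shared. No E60 number was missing at any E50-only region of these 4 loci. At CEMIP (chr7:58104540-58276375) 2 of the 3 E50-only regions were called at E80 and 2 at E85. LARP1 and SHISA9 each had 2 E50-only regions of 7, of which 1 had no number missing. Loci with exactly 4 regions (933) had 2.06% of their regions E50-only, and those with 3 (1774) had 2.03%.

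**Figure D4:**
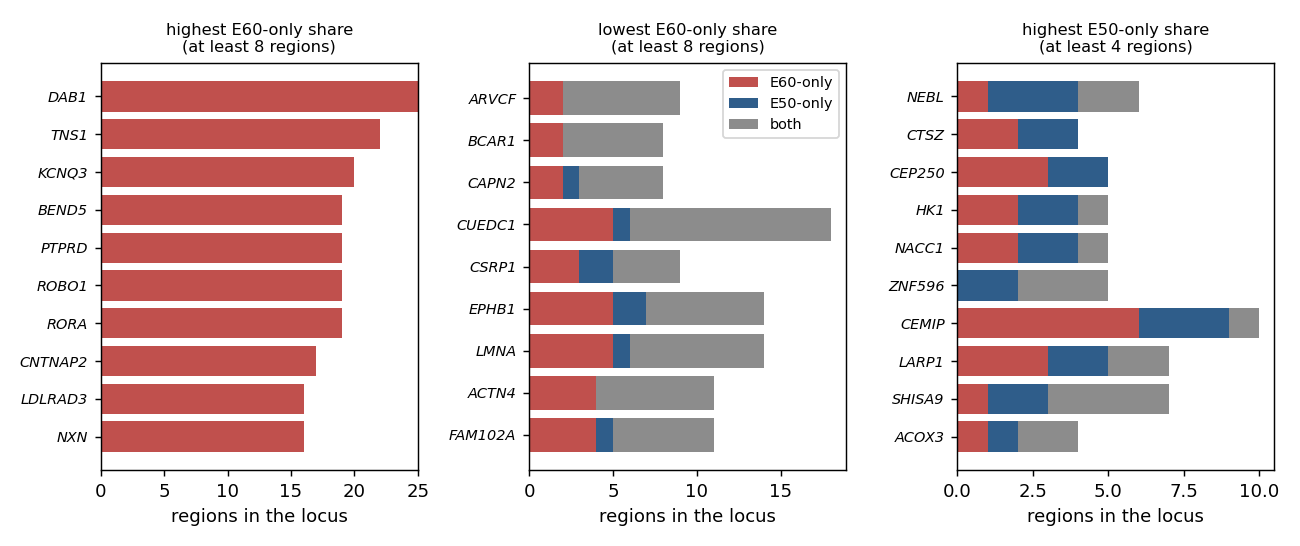
Number of regions (x axis) that were E60-only, E50-only or called at both in the 10 loci with the highest and 9 of those with the lowest E60-only share (at least 8 regions) and the 10 with the highest E50-only share (at least 4 regions). The left loci hold E60-only regions alone, from 25 at DAB1 to 16 at NXN.

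Among the 24 gene lists, the E60-only share was above the 69.0% of all autosomal regions, interval included, for endothelium (95.7%, 78.1 to 99.9), HOX and posterior genes (95.5%, 77.2 to 99.9), upper-layer neurons, pan-neuronal genes, deep-layer neurons and synapse genes. It was below it, interval included, for cell cycle, cytosolic ribosomal protein, and AP-1 and stress genes. Regions of these 3 lists were mostly promoters (18 of 20, 48 of 53 and 21 of 33), and 43.2% of all promoters were E60-only. That lies above the first 2 intervals (3.21 to 37.9 and 10.8 to 34.1) but within the third (28.1 to 63.6). AP-1 and stress genes had 19.0% of 21 promoters and 91.7% of 12 distal regions E60-only, against 78.2% of all distal regions. Upper-layer neuron genes had 62 E60-only, 0 E50-only and 11 shared regions (84.9%, 74.6 to 92.2), with RORB at 4 of 4, INHBA at 3 of 4 and CUX1 at 19 of 23. CUX2 had 7 of 7, but no E50 peak lay among these regions. They therefore share 1 gap between flanking E50 peaks, in which an E50 number was missing. Deep-layer genes had 52, 1 and 11 (81.3%, 69.5 to 89.9), with FOXP2 at 10 of 10 and BCL11B at 6 of 7, against NFE2L3 at 3 of 4 and LDB2 at 7 of 11. Pan-neuronal genes had 124, 2 and 22 (83.8%, 76.8 to 89.3), with ANK3 at 8 of 8 and CELF4, an RNA-binding protein gene, at 26 of 28, against NCAM1 at 7 of 10 and the synaptic vesicle calcium sensor SYT1 at 4 of 7. Synapse genes had 209, 5 and 45 (80.7%, 75.4 to 85.3). All 7 regions at GRIN2B, an NMDA receptor subunit gene, were E60-only, while at DLG4, which encodes the scaffold PSD-95, 3 of 6 were. Genes of interneurons and the ventral forebrain had 41, 0 and 9 (82.0%, 68.6 to 91.4), with 12 of 12 at GAD1, which makes the transmitter GABA, and 3 of 5 at ERBB4. Of the 12 at GAD1, 7 were also called at E80 and 0 at E85. The 78.2% of all distal regions lies within the interval of each of these 5 lists, promoters included. It also lies within the intervals of endothelium and of HOX and posterior genes.

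The progenitor lists differed among themselves, with intervals that held 69.0% for radial glia, outer radial glia, intermediate progenitors and early timing and lay below it for cell cycle genes. Radial glia genes had 60 E60-only, 0 E50-only and 41 shared regions (59.4%, 49.2 to 69.1), and 14 of 15 promoters were called at both stages. At SLC1A3, the glial glutamate transporter, 4 of 9 regions were E60-only, at NOTCH2 3 of 6, at PAX6 6 of 8 and at PROM1 6 of 7. Outer radial glia genes had 43, 0 and 20 (68.3%, 55.3 to 79.4), from 10 of 12 at PTPRZ1 to 5 of 10 at ITGB5 and 2 of 4 at STAT3. Intermediate progenitor genes had 16, 0 and 3 regions (84.2%, 60.4 to 96.6). Their promoters stood apart from those of radial glia: EOMES, NEUROG1, NEUROG2, INSM1, ELAVL4, NHLH1 and PPP1R17 were called at E60 alone, HES6 at both and PENK at neither. For comparison, of 13329 autosomal protein-coding genes with a promoter call at either stage, 4231 (31.7%) were called at E60 alone and 226 (1.70%) at E50 alone. Cell cycle genes had 3 E60-only, 1 E50-only and 16 shared regions (15.0%, 3.21 to 37.9), with 14 of 15 promoters called at both and that of the proliferation marker MKI67 at E60 alone. Cytosolic ribosomal protein genes had 11, 2 and 40 (20.8%, 10.8 to 34.1). Genes of early progenitor timing had 28, 0 and 20 (58.3%, 43.2 to 72.4). Of their 10 promoters, 5 were called at both stages, 3 at E60 alone and 2 at neither. Among the 3 were LIN28B, a blocker of let-7 maturation, and HMGA2, a chromatin protein of young stem cells.

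For the patterning list and the Notch, Wnt, FGF and hedgehog lists, the interval held the 69.0% of all regions. Dorsal patterning genes had 69 E60-only, 0 E50-only and 20 shared regions (77.5%, 67.4 to 85.7), from 9 of 9 at BCL11A and 4 of 4 at EMX1 to 2 of 5 at ETV1 and 1 of 4 at OTX1. Notch genes had 87, 0 and 40 (68.5%, 59.7 to 76.5), with 28 of 32 at the coactivator MAML3 and 3 of 7 at the ligand JAG1. Wnt genes had 83, 3 and 38 (66.9%, 57.9 to 75.1), FGF genes 42, 1 and 25 (61.8%, 49.2 to 73.3) and hedgehog genes 73, 0 and 26 (73.7%, 63.9 to 82.1). All 4 regions at SHH were E60-only, but they share 1 gap between flanking E50 peaks, in which an E50 number was missing. Genes of AP-1 subunits and stress had 15, 1 and 17 (45.5%, 28.1 to 63.6), with the promoters of FOS and JUN called at both stages.

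Lists of other cell types ranged from almost no calls to many. Of 19839 autosomal protein-coding genes, 32.8% had a promoter called at neither E60 nor E50, 21.3% at E60 alone and 44.7% at both. For microglia, 0 of 12 listed genes had a called promoter at E60 or E50, and 8 regions in all lay in their loci. Endothelial genes had 22 E60-only, 0 E50-only and 1 shared region, with 4 of 10 promoters called at E60 alone and none at both. Mesenchyme and mural cell genes had 16, 0 and 5, choroid plexus and hem genes 14, 2 and 3, and HOX and posterior genes 21, 0 and 1. Astrocyte genes had 73, 3 and 35 (65.8%, 56.2 to 74.5), and its members differed. The transcription factor genes NFIX, NFIA and NFIB had 22 of 29, 20 of 28 and 14 of 17, and CD44 had 6 of 7. SLC1A2 had 7 of 11, GFAP 2 of 6 (with an E50 number missing at both), ALDH1L1, AQP4 and ID3 0 of 2 each, and APOE and S100B 0 of 1 each. Oligodendrocyte lineage genes had 44, 0 and 13 (77.2%, 64.2 to 87.3). In bulk cells, a region opened in few cells and one opened weakly in many cannot be told apart.

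Of all 58755 autosomal regions called at E60 or E50, 1.75% were E50-only, and 10.4% of loci with at least 4 regions held such a region. These shares are the background for the listed genes, and no excess over them was tested. Of the listed genes, 21 had an E50-only region, 1 each. An E60 number was missing at 10 of them: AQP1, AURKB, GFAP, GRIN1, HSPA1A, MYT1L, NLGN1, RPL3, RPS2 and TCF7L1. The other 11 included AXIN2, DLGAP1, LDB2, LMX1A, NFIA, NRXN3, SHANK2, SPARCL1, SPRED2 and TCF7L2. All of these 11 were distal, 10 in introns and that of AXIN2, a Wnt feedback gene, in intergenic sequence. Those of LDB2 (chr5:15546785-15547215), NFIA (chr1:163258001-163259069), DLGAP1, NRXN3, SPARCL1 and SPRED2 were called again at both E80 and E85. Those of LMX1A and TCF7L2 were called at E85 alone, that of SHANK2 at E80 alone, and that of AXIN2 at neither.

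**Figure D5:**
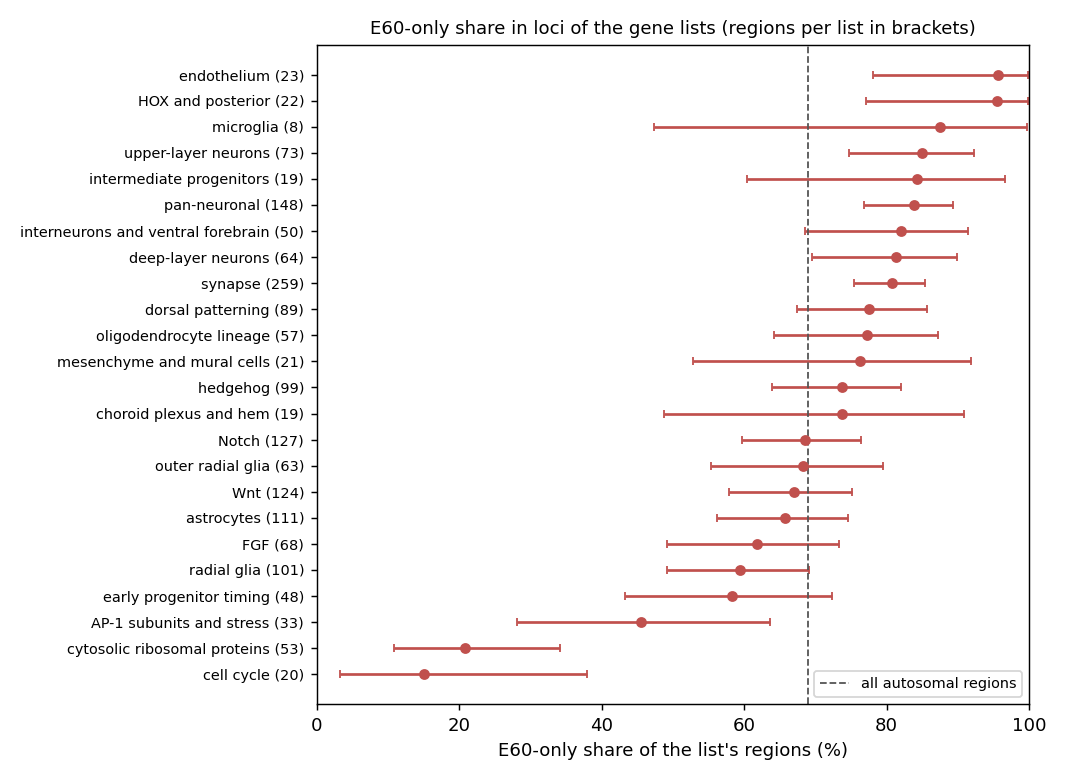
E60-only share of the regions in the loci of each gene list (%, x axis), with 95% Clopper-Pearson intervals and the number of regions in brackets; the dashed line is the 69.0% of all autosomal regions. Upper-layer neurons lie at 84.9% and cell cycle genes at 15.0%.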

How the data were processed

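Bulk ATAC-seq libraries of rhesus macaque cortex cultures, with 1 culture and 2 technical libraries per stage (4 stages), were used as peak calls. Per the submitters' processing notes the build was rheMac10, and the tools included Bowtie2 2.5.1, SAMtools 1.15 and cutadapt 4.4. On pooling of libraries, a Tn5 offset, and the peak caller with its threshold, nothing is given in the sources used here. A headerless table of 112696 merged regions was deposited by the authors. It gives each region's position and the names of its peaks, and the code and number in each name were the measurement. Another 8 columns of deposited values carry no names and could not be matched to libraries by any label. They stayed out of every step, depth per library is unknown, and tests that need values were not run. A further 40338 regions held no stage peak and were left out.

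A region was called at a stage when it held at least 1 peak of that stage, and E60-only, E50-only and shared regions were counted on the 20 autosomes. Promoters lay within 1000 bp of a transcription start in NCBI's annotation of Mmul_10, the assembly that rheMac10 names. Loci were the bodies of protein-coding genes (21122 in all) and the 5000 bp upstream. The 25 consensus motifs were sought on both strands within 150 bp of the region's centre. The named loci were the 10 highest and 10 lowest by E60-only share (at least 8 regions) and the 10 highest by E50-only share (at least 4), with list members at the ends of each list. Some items that these rules select are not reported here. The members, the motifs and the 24 gene lists were chosen with earlier results of these data known. TLE4, TUBB3 and RPS6 were not found under those names in the annotation. Motif matching, the placing of missing numbers and the intervals were tested on simulated data. Shares have exact 95% Clopper-Pearson intervals. Alternatives were other region sets, motif windows, locus definitions and minimums. Python 3.11.15, pandas 2.3.3, NumPy 2.4.6, SciPy 1.17.1, pysam 0.24.0 and matplotlib 3.10.9 were used. Coordinates are 1-based.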

Additional observations from a re-analysis of the deposited data

How the results depend on the processing

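The E60-only share of regions (69.0%) was 43.2% in promoters, 78.2% in distal regions, 79.4% in regions of at most 1000 bp, 65.6% when a region of the other stage within 1000 bp counted as shared, 88.1% without peaks of another set, 62.0% among regions also called at E80 or E85, 29.2% among those with at least 2 peaks of the stage, 52.4% over peaks and 66.2% with no number missing. The E50-only share (1.75%) was 1.86% in promoters and, under the other settings that moved it, 1.54% (within 1000 bp), 2.21% (no peak of another set), 0.416% (at least 2 peaks), 1.32% (peaks) and 0.937% (no number missing).

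The E85 share of E60-only regions (21.7%) was 33.4% in promoters, 19.4% in distal regions, 19.5% up to 1000 bp and 12.7% without peaks of another set. That of E50-only regions (75.5%) was 71.1% in promoters and 82.0% with no number missing, and stayed above the E60-only share in each of these. For AP-1, the distal E60-only share was 25.2% in windows of 100 bp, 36.3% in whole regions, 31.1% up to 1000 bp and 39.4% without peaks of another set, and the E50-only share 12.04% in windows of 100 bp and 23.0% in whole regions. Regions called at both, matched on GC content to E60-only and E50-only regions, held AP-1 in 25.4% and 25.6% and STAT in 11.41% and 11.43%. The STAT share was 6.01% (100 bp) and 13.1% (whole regions) in E60-only regions, and 11.4% (100 bp), 22.1% (whole regions), 18.0% (no peak of another set) and 18.9% (no number missing) in E50-only regions. The cause of these moves was not tested. The median E60-only share per locus (76%) moved by less than the spread between loci under every setting run. With 24 gene lists, the share left its interval in 1 list for gene bodies alone, 6 for distal regions alone and 16 for promoters alone.

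No paired analysis was possible because the values per library carry no names. For the same reason leaving out each replicate, DESeq2 size factors against TMM, and a filter on low counts were not run. With 1 culture a stage and unknown depth, no call or absence of a call has a replicate check. The setting with no number missing was chosen after the data were seen.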
